A study of Mus musculus with 5 samples.

Results

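The genes described here are the heat shock proteins, chaperones and protein disulfide isomerases of mouse liver, measured in mice given CSF1-Fc or PBS. They were chosen by name: every gene whose symbol belongs to the Hspa, Hspb, Hspd, Hspe, Hsph and Hsp90 families, the J protein families Dnaja, Dnajb and Dnajc, the Pdia disulfide isomerases, the Cct subunits with Tcp1, the lectin chaperones Calr and Canx, or the Bag co-chaperones. The rule uses symbols and no measured values, though it was written with earlier results of these data known. In all, 87 genes met the rule, of 18820 genes with an array row assigned to a single symbol, and they were sorted by where the protein works into 48 cytosolic, 18 endoplasmic reticulum (ER), 10 mitochondrial and 11 other members (nuclear, vesicle, ciliary or unplaced). CSF1-Fc is the active part of pig CSF1, a growth factor for macrophages, joined to the Fc region of a pig immunoglobulin, which slows its clearance. Adult C57BL/6 mice had received PBS (2 livers) or CSF1-Fc (3 livers) under the skin on 4 consecutive days, and livers were taken on day 5. The labels name no other treatment and no genotype beyond the strain. RNA of whole liver was read on Affymetrix arrays, 1 array per liver, so fewer cells of a type and less RNA per cell cannot be told apart.

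Chaperones bind unfolded or partly folded proteins and give them another chance to fold. HSP70 proteins do this in cycles of ATP use, J proteins bring them clients and start the cycle, and BAG proteins and the large HSP70 relatives end it by releasing the nucleotide. HSP90 and the TRiC chaperonin ring act on particular clients, small heat shock proteins hold clients until others act, and in the ER the lectin chaperones and disulfide isomerases fold glycoproteins and set their disulfide bonds. Hepatocytes secrete most plasma proteins and keep a large ER folding apparatus. Of their regulatory programs, heat shock factor acts on cytosolic and mitochondrial chaperone genes through heat shock elements, and the unfolded protein response acts on ER chaperone genes through ER stress elements.

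The promoter sites of those elements are printed here to show what members share beyond their names. RefSeq promoter windows (build GRCm38.p6, 250 bases before to 50 bases after a start site) were at hand for 73 of the 87 members and for 27025 genes in all. Both strands were searched. The ER stress element, spelled CCAAT, 9 bases of any kind and CCACG, was found in 6 of 16 ER members with a window (37.5%), against 0.137% of all genes, and in none of the 57 other members with a window. A shorter form, ATTGG and CCACG with 1 base between them, was found in 1 further ER member, Dnajb11, against 0.0444% of all genes. In the lines that follow the capitals mark the element, and each site is given 5′ to 3′ on the strand that reads as the element.
Hspa5, chr2:34772017-34772051, plus strand: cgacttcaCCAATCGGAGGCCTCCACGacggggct
Hsp90b1, far site, chr10:86705630-86705664, minus strand: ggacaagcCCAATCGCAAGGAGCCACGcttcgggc
Hsp90b1, near site, chr10:86705525-86705559, plus strand: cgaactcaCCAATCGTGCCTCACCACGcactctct
Calr, chr8:84847067-84847101, plus strand: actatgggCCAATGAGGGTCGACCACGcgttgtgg
Canx, chr11:50325792-50325826, minus strand: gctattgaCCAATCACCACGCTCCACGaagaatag
Pdia6, chr12:17266483-17266517, plus strand: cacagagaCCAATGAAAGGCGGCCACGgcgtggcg
Dnajc3, chr14:118937819-118937853, plus strand: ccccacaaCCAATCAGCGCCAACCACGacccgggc
Dnajb11, chr16:22857844-22857870, plus strand: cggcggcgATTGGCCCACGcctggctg

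The whole window of Hspa5, the ER HSP70 also called BiP, is shown for its context, with the ER stress element and each further CCAAT or its complement ATTGG in capitals. It holds 4 CCAAT boxes, of which the last begins the element. A CCAAT box alone was common, in 45.2% of members and 41.1% of all genes.
Hspa5, chr2:34771840-34772139, plus strand: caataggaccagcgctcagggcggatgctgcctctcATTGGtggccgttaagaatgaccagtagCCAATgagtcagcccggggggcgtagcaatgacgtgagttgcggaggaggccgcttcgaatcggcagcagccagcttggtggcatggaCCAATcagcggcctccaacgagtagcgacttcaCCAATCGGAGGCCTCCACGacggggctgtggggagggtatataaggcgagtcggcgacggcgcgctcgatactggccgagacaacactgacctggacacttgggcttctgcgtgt

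The heat shock element, spelled GAA, TTC and GAA with 2 bases between neighbors, was found in 4 members (5.48%) against 0.662% of all genes. None of these was an ER gene. Hspd1 and Hspe1, the mitochondrial chaperonin and its lid, lie head to head and share the same site, and Hsph1 and Dnajb6 are cytosolic. The capitals again mark the element.
Hspd1 and Hspe1, chr1:55088056-55088084, plus strand: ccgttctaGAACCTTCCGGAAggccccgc
Hsph1, chr5:149636280-149636308, plus strand: actgaggaGAACTTTCCAGAAtctgcagc
Dnajb6, chr5:29735844-29735872, plus strand: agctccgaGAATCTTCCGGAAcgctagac

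Few of these genes differed between CSF1-Fc and PBS livers. After adjustment over all array rows (limma, adjusted p under 0.05), 2 of 87 members rose with CSF1-Fc (2.30%), against 8.34% of all genes, and 3 fell (3.45%), against 3.95% of all genes. The 2 that rose were Dnajc9 and Dnajc10, the 3 that fell were Bag3, Bag4 and Dnajc28, and 82 did not pass. The median log2 fold change was -0.08 over the members and -0.08 over all genes. Among genes with a mean log2 intensity of 5 or more, which included 70 members with the same 5 calls, the shares over all genes were 13.4% higher and 6.62% lower. Every CSF1-Fc liver lay above both PBS livers for 14 members (18.2% of all genes did so), every CSF1-Fc liver lay below both for 26 (29.3% of all genes), and for 47 members the groups overlapped. At an unadjusted p under 0.05 the fit held 7 members higher (8.05%, against 13.2% of all genes) and 16 lower (18.4%, against 14.5% of all genes). With 2 arrays against 3, no exact permutation test could reach 0.05, so each call leans on the spread that limma shares across rows.

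**Figure D1:**
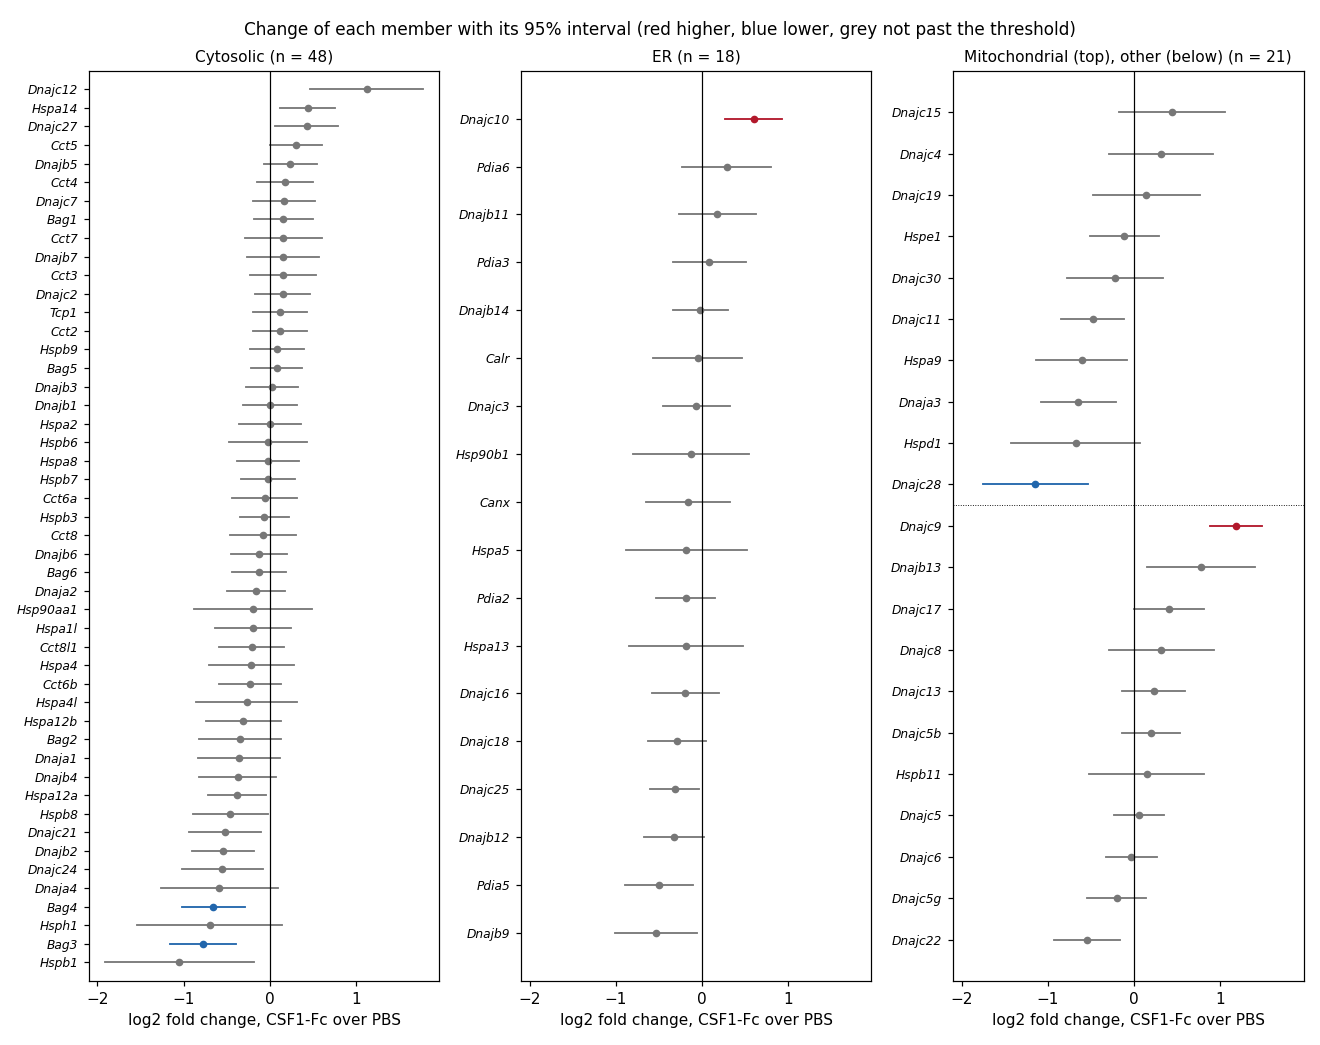
Log2 fold change of CSF1-Fc over PBS for each of the 87 members (points) with its 95% interval (lines), by compartment. Red marks the 2 members that passed the threshold upward (Dnajc9, Dnajc10), blue the 3 that passed it downward (Bag3, Bag4, Dnajc28), and most grey intervals cross 0.

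Dnajc9, a nuclear J protein that also handles histones, had the lowest adjusted p of the members. Its log2 intensity (row 10417829) was 5.65 and 5.69 with PBS, against 6.78, 6.92 and 6.88 with CSF1-Fc. The 3 treated livers lay close together and far above both controls. Its level was 2.27-fold higher (log2 fold change 1.18, SE 0.12, 95% interval 0.89 to 1.48, adjusted p = 0.00227), and it passed without any single mouse, with adjusted p from 0.00678 to 0.0320. Its promoter window holds an E2F type element (1 of TTTCCCGC, TTTGGCGC, TTTCGCGC or TTTGCCGC on either strand), a motif searched for after its values were seen. The same letters occur in 6 members and in 2.60% of all genes, and the other 5 members with it (Tcp1, Cct3, Dnajb9, Dnajc19 and Dnajc5g) did not pass the test.
Dnajc9, chr14:20388861-20388879, plus strand, element in capitals: cctTTTCCCGCccaaataa

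Dnajc10, an ER J protein with thioredoxin domains that reduces disulfide bonds of misfolded clients, was the only ER member called. Its log2 intensity (row 10473190) was 6.97 and 7.05 with PBS, against 7.72, 7.47 and 7.66 with CSF1-Fc, with no overlap. It was 1.52-fold higher (log2 fold change 0.60, SE 0.14, 95% interval 0.27 to 0.93, adjusted p = 0.0460). The call was lost without CSF1-Fc mouse 1 (adjusted p = 0.165), CSF1-Fc mouse 3 (0.0721), PBS mouse 1 (0.239) or PBS mouse 2 (0.217).

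Bag3 and Bag4 fell. Bag3, a co-chaperone that joins HSP70 to small heat shock proteins and sends clients to autophagy, read 7.39 and 7.38 with PBS, against 6.66, 6.39 and 6.79 with CSF1-Fc (row 10557992). It fell by 0.77 on the log2 scale (SE 0.16, 95% interval -1.15 to -0.39, adjusted p = 0.0321), and all 3 treated livers lay below both controls. The call was lost without CSF1-Fc mouse 1 (adjusted p = 0.107), PBS mouse 1 (0.171) or PBS mouse 2 (0.192), and with arrays centered on secreted liver proteins (0.0769). Bag4, a co-chaperone that also binds death receptors, read 8.80 and 8.60 with PBS, against 7.88, 8.16 and 8.11 with CSF1-Fc (row 10577858). It fell by 0.65 (SE 0.15, 95% interval -1.02 to -0.29, adjusted p = 0.0491), again with no overlap. That call sat at the threshold and was lost without any 1 of the 5 mice, with adjusted p from 0.0617 to 0.262, and with secreted protein centering (0.222). The remaining BAG members Bag1, Bag2, Bag5 and Bag6 had log2 fold changes from -0.34 to 0.16. Bag6, with the brightest row of the family, read 9.10 and 9.23 with PBS, against 9.03, 8.97 and 9.13 with CSF1-Fc, which overlapped (log2 fold change -0.13, SE 0.13, adjusted p = 0.631).

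Dnajc28, a mitochondrial J protein, read 6.54 in both controls, against 5.27, 5.05 and 5.88 with CSF1-Fc (row 10440926). The treated livers spread more widely than the controls, yet all lay below them. The fall was 1.14 on the log2 scale (SE 0.25, 95% interval -1.75 to -0.54, adjusted p = 0.0414). Its call was lost without CSF1-Fc mouse 1 (adjusted p = 0.144), CSF1-Fc mouse 2 (0.0639), PBS mouse 1 (0.182) or PBS mouse 2 (0.210).

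**Figure D2:**
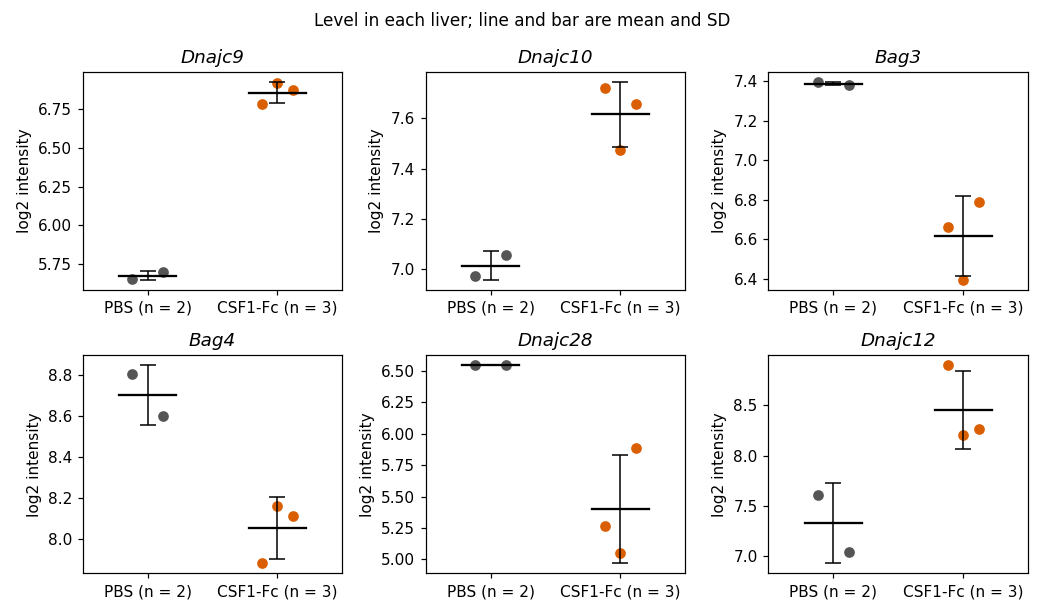
Log2 intensity of the 5 members that passed the threshold and of Dnajc12 in each of the 2 PBS (gray) and 3 CSF1-Fc (orange) livers, with mean (line) and SD (bar) per group. The vertical axes differ between panels and do not start at 0. In all 6 panels the groups do not overlap.

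Markers of some other cell types, and cell cycle genes, moved strongly with treatment in the same livers. Of 17 macrophage markers 17 rose (median log2 fold change 2.51), with summed intensities from 5273 to 5766 in PBS livers and from 26212 to 29048 in CSF1-Fc livers. Of 17 cell cycle genes, which mark no cell type, 17 rose (median 3.03), with sums from 1316 to 1338 and from 8083 to 9336. Csf1r, the receptor for CSF1 on macrophages, rose by 1.93 (adjusted p = 0.00105). Kupffer cell markers (7 of 8) and neutrophil markers (8 of 10) rose too, whereas none of 32 secreted liver proteins passed (median -0.17), and Alb, the hepatocyte product albumin, was at 13.22 and 13.26 in group means. No marker row had an intensity of 0. Of the other marker lists, 1 of 8 T cell, 3 of 9 B cell and plasma cell, 1 of 5 erythroid, 1 of 10 endothelial and 2 of 10 stellate cell genes rose, 1 erythroid, 1 endothelial and 1 stellate cell gene fell, and none of 6 cholangiocyte genes passed. The part of these cells, or of cell division, in the changes of Dnajc9 or any other member was not tested.

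The scaling of the arrays can turn the sign of small changes, so medians are read beside that of all genes. Centering each array on the 32 secreted proteins moved the median of all genes from -0.08 to 0.14, and that of the members from -0.08 to 0.14 with it. Under that centering 4 members were higher and 1 lower.

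In the cytosol, 2 of 48 members passed, Bag3 and Bag4, both lower (4.17%, against 3.95% of all genes). The median log2 fold change was -0.07 (0.15 with secreted protein centering). Hspa8, the constitutive HSP70, read 12.32 and 12.53 with PBS, against 12.55, 12.26 and 12.41 with CSF1-Fc. Its groups overlapped fully (log2 fold change -0.02, SE 0.15, 95% interval -0.38 to 0.34, adjusted p = 0.962), and its 3 array rows had log2 fold changes from -0.03 to -0.02. Hsp90aa1, the inducible cytosolic HSP90, read 10.05 and 10.71 with PBS, against 10.49, 9.76 and 10.32 with CSF1-Fc. The difference between the PBS livers exceeded that between the groups (log2 fold change -0.19, SE 0.28, adjusted p = 0.750). Dnajb1, the J protein partner of inducible HSP70, had a log2 fold change of 0.01. Hspa1a and Hspa1b, the inducible HSP70 genes themselves, are among 7 gene symbols found only on rows shared by several genes and are not analyzed here.

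The large HSP70 relatives Hspa4, Hspa4l and Hsph1, which release nucleotide from HSP70, had log2 fold changes from -0.70 to -0.21, none past the threshold, and their median of -0.27 was -0.05 with secreted protein centering. Hspa4 read 9.73 and 9.96 with PBS, against 9.66, 9.31 and 9.93 with CSF1-Fc, which overlapped (log2 fold change -0.21, SE 0.21, adjusted p = 0.609). Hsph1, whose promoter has a heat shock element, read 7.96 and 8.64 with PBS, against 8.22, 7.21 and 7.39 with CSF1-Fc, a spread in both groups that overlapped.

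Of the 6 small heat shock proteins none passed. Hspb8, the partner of Bag3, read 10.45 and 10.36 with PBS, against 10.23, 9.91 and 9.72 with CSF1-Fc. All treated livers lay below the controls (log2 fold change -0.46, SE 0.18, 95% interval -0.89 to -0.02, adjusted p = 0.193). Hspb1, singled out after its values were seen, read 8.81 and 9.11 with PBS, against 8.66, 7.61 and 7.48 with CSF1-Fc. CSF1-Fc mouse 1 lay next to the controls and the other treated mice about 1 log2 unit below it. A log2 fold change of -1.05 (SE 0.36) therefore had an adjusted p of 0.143, which was 0.0163 without CSF1-Fc mouse 1. That mouse was the treated liver nearest the controls, so its removal could only widen the difference. Without either other treated mouse Hspb1 did not pass. Over the single-mouse leave-outs its log2 fold change ran from -1.42 to -0.83. A second row of Hspb1 gave -1.05 and another, dim row gave -0.07. Hspb6 and Hspb7 had log2 fold changes of -0.02 each.

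None of the 16 cytosolic J proteins passed. Dnajb6, which keeps clients from aggregating, read 10.90 and 10.85 with PBS, against 10.83, 10.61 and 10.82 with CSF1-Fc. Its values lay just below the controls (log2 fold change -0.12, SE 0.13, adjusted p = 0.656). The other bright rows of Dnajb6 gave -0.16 to -0.15. A dim row, at a mean log2 intensity of 4.87, gave -0.39, so its level differs between rows. Dnajc7, a J protein that links HSP70 and HSP90, read 8.08 and 8.07 with PBS, against 8.32, 8.04 and 8.36 with CSF1-Fc, which overlapped (log2 fold change 0.17, SE 0.15, adjusted p = 0.568). Dnajc12, a co-chaperone of phenylalanine hydroxylase and related enzymes, was singled out after its values were seen, because its change was as large as that of Dnajc9. It read 7.61 and 7.05 with PBS, against 8.90, 8.20 and 8.27 with CSF1-Fc. No treated liver reached down to a control, but both groups spread, and a log2 fold change of 1.13 (SE 0.27, 95% interval 0.47 to 1.78) had an adjusted p of 0.0564. It passed under array median centering (0.0468) and secreted protein centering (0.0214). The same held with rows of a gene averaged (0.00980), with only 1-symbol rows tested (0.0114) and without dim rows (0.0284). With the replicate number as a block it passed too (0.0220). Leaving out any single treated mouse did not bring it past the threshold. Over the single-mouse leave-outs its log2 fold change ran from 0.84 to 1.41.

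Dnajc21 and Dnajc24, which serve ribosome assembly and diphthamide synthesis, had log2 fold changes of -0.52 and -0.55, and Dnajb2, a J protein with ubiquitin binding motifs, -0.54, with all treated livers below the controls and none past the threshold. Hspa14, an HSP70 relative of the ribosome, had a log2 fold change of 0.44, and its ribosomal partner Dnajc2 0.15. Hspa14 passed under secreted protein centering (adjusted p = 0.0424), with rows of a gene averaged (0.0435) and with only 1-symbol rows tested (0.0493). Dnajb2 passed in the last 2 of these settings (0.0291 and 0.0336).

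The TRiC chaperonin, a ring of different subunits that folds actin and tubulin, varied little between the groups. Its 10 members, which include the testis type genes Cct6b and Cct8l1 with dim rows here, had log2 fold changes from -0.23 to 0.30 and a median of 0.12 (0.34 with secreted protein centering). None passed. Cct2 read 10.51 and 10.62 with PBS, against 10.65, 10.61 and 10.78 with CSF1-Fc, with a slight overlap (log2 fold change 0.12, SE 0.13, 95% interval -0.20 to 0.43, adjusted p = 0.662). Cct5 had the largest change of the ring, 0.30 (1.24-fold), with all treated livers above the controls.

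In the ER, 1 of 18 members passed, Dnajc10, which was higher (5.56%, against 8.34% of all genes). The median log2 fold change was -0.17 (0.04 with secreted protein centering). Hspa5 read 11.21 and 11.77 with PBS, against 11.67, 10.82 and 11.43 with CSF1-Fc. The treated livers lay on either side of the lower control (log2 fold change -0.18, SE 0.29, 95% interval -0.88 to 0.52, adjusted p = 0.775). Calr read 11.57 and 11.93 with PBS, against 11.78, 11.38 and 11.96 with CSF1-Fc, again with full overlap (log2 fold change -0.05, SE 0.21, adjusted p = 0.934). Pdia3, the disulfide isomerase that works with Calr and Canx, read 10.97 and 11.20 with PBS, against 11.24, 10.91 and 11.35 with CSF1-Fc. The groups overlapped here too (log2 fold change 0.08, SE 0.18, adjusted p = 0.834). Dnajc3, which restrains the kinases that phosphorylate eIF2α, read 10.42 and 10.59 with PBS, against 10.51, 10.21 and 10.60 with CSF1-Fc (log2 fold change -0.06, SE 0.16, adjusted p = 0.870).

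The lowest ER members were Dnajb9, a BiP partner and target of the unfolded protein response (-0.53), and Pdia5 (-0.50), each with all treated livers below the controls and not past the threshold. Pdia6 (0.29) and Dnajb11 (0.18) were the highest after Dnajc10. The 95% intervals of Hspa5, Hsp90b1 (-0.80 to 0.55), Hspa13 (-0.85 to 0.47) and Calr (-0.56 to 0.47) each spanned a fall and a rise, so a change within them was not detectable with these mice.

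**Figure D3:**
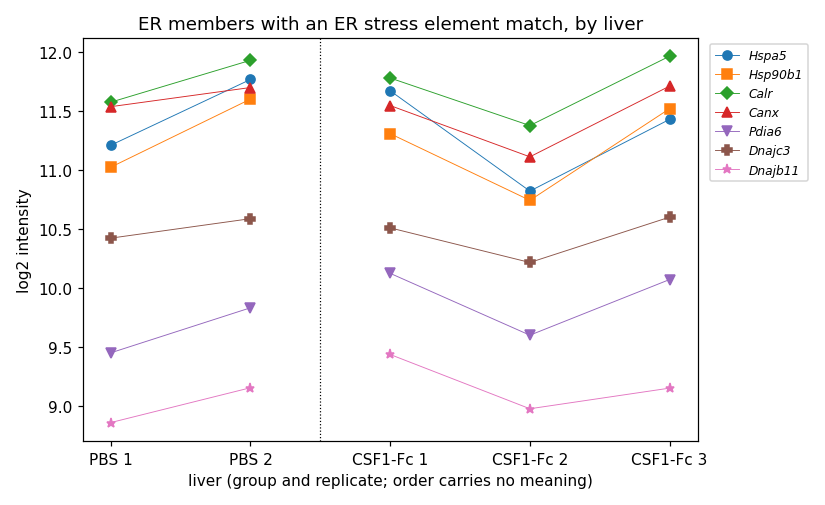
Log2 intensity of the 7 ER members whose promoter window has an ER stress element match, in each of the 2 PBS and 3 CSF1-Fc livers. Lines only help to follow a gene within a group. In all 7 genes PBS 2 lies above PBS 1 and CSF1-Fc 2 is the lowest of the treated livers.

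Many ER genes differed between mice of a group in the same order. This pattern was picked out after the values were seen and is given as a description without a test. PBS mouse 2 lay above PBS mouse 1, and CSF1-Fc mouse 2 lay below the other treated mice, in 14 of 17 ER members with a mean log2 intensity of 5 or more (82.4%), against 31.6% of all genes that bright. The order held in 7 of the 7 with an ER stress element and in 6 of the 8 whose window had no match. The other 2, Hspa13 and Dnajc18, had no window to search, and it held in Hspa13. The median difference between the PBS mice was 0.36 for the 7 with the element and 0.13 for the 8 without a match. CSF1-Fc mouse 2 differed from the mean of the other treated mice by a median log2 difference of -0.50 in the former and -0.25 in the latter. The 7 had mean log2 intensities from 9.11 to 11.72, and the 8 from 7.30 to 11.14. The part of brightness or of the element in this order was not tested. Hspa5 (0.56 between the PBS mice), Hsp90b1 (0.58) and Hspa13 (0.55) differed most of the ER members. The cytosolic Hsph1, whose window has no ER stress element, differed by 0.68. The change between groups was smaller than the widest spread within a group in 11 of 17 ER members (64.7%), and in 7 of the 7 with the element. The share was 53.8% of all genes and 71.4% of all members with a mean log2 intensity of 5 or more. Of members at 9 or more, it was 29 of 33 (87.9%).

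Cytosolic members of the same arrays showed the order too. It held in 20 of 35 cytosolic members (57.1%), among them Hsp90aa1, all 3 large HSP70 relatives and 7 of 8 TRiC subunits with bright rows, but in 1 of 5 BAG proteins and none of the 3 small heat shock proteins that bright. Over all compartments it held in 39 of 70 members (55.7%). At a mean log2 intensity of 9 or more it held in 25 of 33 members (75.8%) against 35.6% of all genes. Since genes measured in the same livers share whatever those livers share, the counts are not independent.

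The mitochondrial members divided. Of 10, 4 followed that order and 5 ran the other way, with PBS mouse 2 below PBS mouse 1 and CSF1-Fc mouse 2 highest of the treated mice (22.4% of all genes with bright rows did so). The 5 were Hspe1, Dnajc15, Dnajc4, Dnajc19 and Dnajc30. Hspd1 and Hspe1, which share a promoter region and its heat shock element, differed in this. Hspd1 read 10.83 and 11.19 with PBS, against 10.62, 9.73 and 10.67 with CSF1-Fc, and Hspe1 read 11.39 and 11.13 with PBS, against 11.20, 11.30 and 10.94 with CSF1-Fc. CSF1-Fc mouse 2 was thus the lowest of the treated mice for Hspd1 and the highest for Hspe1. Both genes have more than 1 row in the array, and signal from copies elsewhere in the genome cannot be told apart from their own.

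**Figure D4:**
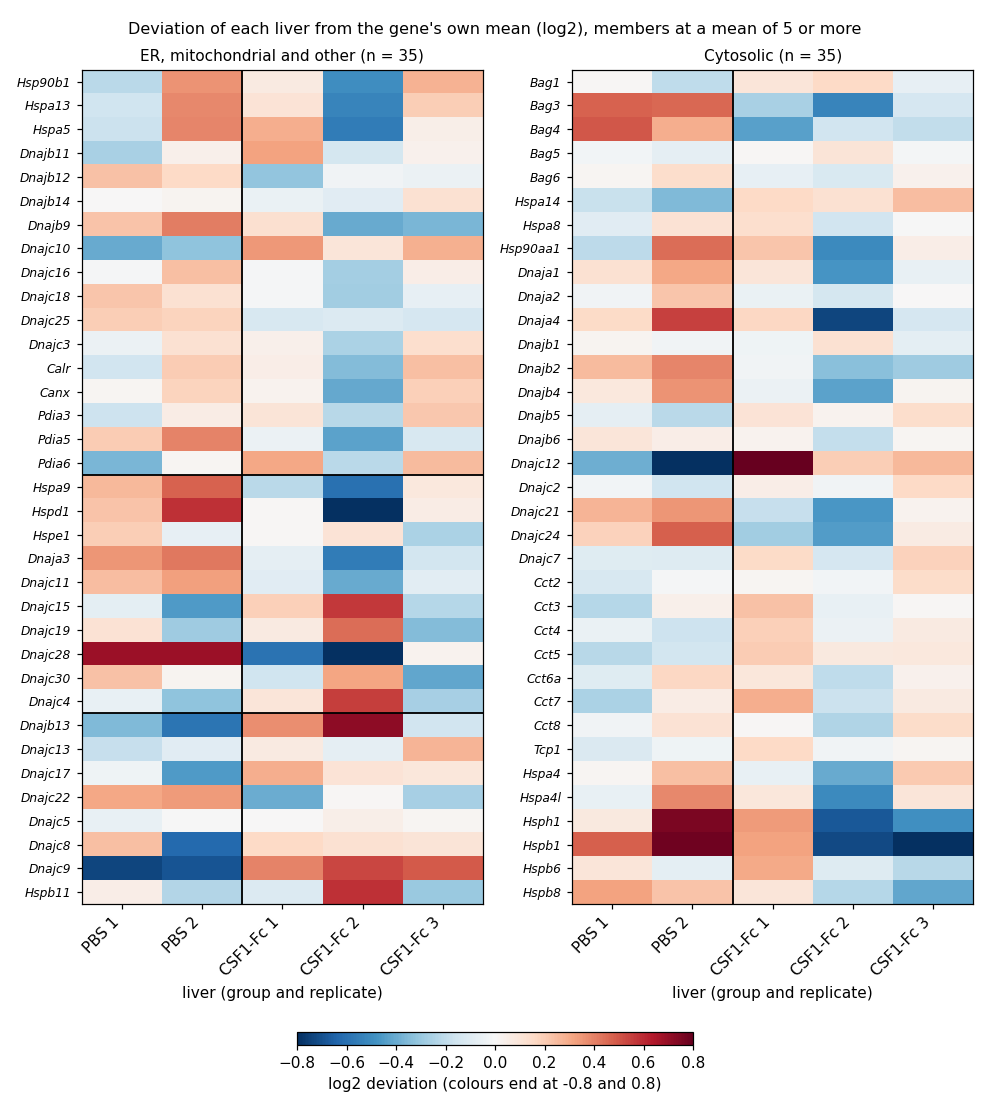
Deviation of each liver (columns) from the gene's own mean over the 5 livers, on the log2 scale, for the 70 members with a mean log2 intensity of 5 or more. Rows at left are ER, mitochondrial and other members from top to bottom, split by black lines, and rows at right are cytosolic members. Red in PBS 2 with blue in CSF1-Fc 2 recurs through the ER and cytosolic rows.

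For 50 of the 70 members (71.4%) the change between groups was smaller than the widest spread within a group, against 53.8% of all genes that bright. Gene by gene, the median SD within groups was 0.18 for all genes that bright, 0.19 for the members and 0.21 for the ER members. The shift of a whole set of genes in a liver was smaller over the whole array, where rises and falls cancel. The median deviation of genes with bright rows was -0.07 in CSF1-Fc mouse 2 and from -0.01 to 0.04 in the other mice, while that of the ER members was -0.27 in CSF1-Fc mouse 2 and 0.18 in PBS mouse 2. The mean log2 level of the secreted proteins was 12.07 in CSF1-Fc mouse 2, 12.18 and 12.30 in the other treated mice, and 12.39 and 12.41 in the PBS mice. Array medians lay between 31.1 and 33.0 intensity units, and arrays correlated at r from 0.983 to 0.991 within groups. The part of RNA quality or dissection in these differences was not tested.

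Between the groups, mitochondrial members had the lowest median of the compartments, -0.35, against -0.08 for all genes, and it was -0.13 against 0.14 with secreted protein centering. Of the 10, 1 fell (Dnajc28), or 10% against 3.95% of all genes, and 9 did not pass. In 5 all treated livers lay below both controls (29.3% of all genes did so). Hspa9, the matrix HSP70, and Hspd1 had log2 fold changes of -0.61 and -0.67 and Dnaja3, the J protein of the matrix, -0.64, each with no overlap and not past the threshold. Dnajc11, a J protein of the cristae junctions, had -0.48. Hspe1 had groups that overlapped (log2 fold change -0.11, SE 0.17, adjusted p = 0.755). Dnajc19, of the import motor, read 10.08 and 9.68 with PBS, against 10.04, 10.42 and 9.62 with CSF1-Fc in its brightest row, with overlap (log2 fold change 0.14, SE 0.26, adjusted p = 0.805). Its second row gave -0.49, so the rows disagree.

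Outside these compartments, 1 of 11 members passed, Dnajc9, which was higher (9.09%, against 8.34% of all genes), and the median was 0.20. Dnajc5, the cysteine string protein of vesicles, hardly varied. It read 9.49 and 9.54 with PBS, against 9.55, 9.60 and 9.56 with CSF1-Fc (log2 fold change 0.06, SE 0.12, 95% interval -0.23 to 0.34, adjusted p = 0.842). Dnajb13, a J protein of cilia and sperm tails, had a log2 fold change of 0.78 from a dim row in PBS livers, and Dnajc22 had -0.55, neither past the threshold.

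Related folding genes outside the named families were read in the same fit. Of 4 heat shock factor genes, the regulator Hsbp1 included, none passed, and Hsf4, with the lowest p, had a log2 fold change of -0.52 (adjusted p = 0.0628). Of 16 co-chaperones of HSP90 and HSP70, 1 rose (6.25%, against 8.34% of all genes) and none fell. It was the glucocorticoid target Fkbp5 (0.94, adjusted p = 0.0474). Of 8 prefoldin genes and TRiC partners none passed, and Vbp1 had 0.49 (adjusted p = 0.171).

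In the ER, 2 of 17 further oxidative folding genes rose (11.8%, against 8.34% of all genes) and 2 fell (11.8%, against 3.95%). Txndc16 (1.32, adjusted p = 0.00155) and Erp29 (0.92, adjusted p = 0.0221) were higher, and Qsox1 (-0.92, adjusted p = 0.0129) and Tmx4 (-0.91, adjusted p = 0.0102) lower. P4hb, the disulfide isomerase PDI itself, had -0.23 (adjusted p = 0.608). Of 20 other ER folding partners none passed. Fkbp11 had 1.00 (adjusted p = 0.0712), Sdf2l1 0.96 (adjusted p = 0.0803), and Hyou1, the large HSP70 relative of the ER, -0.33 (adjusted p = 0.660). Hyou1 read 9.34 and 10.37 with PBS, against 9.93, 9.04 and 9.60 with CSF1-Fc, the order seen in Hspa5.

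Of 26 genes of the unfolded protein response and ER-associated degradation, 1 rose, the stress factor Atf3 (1.62, adjusted p = 0.0229), and 1, Creb3l3, fell by 1.00 (adjusted p = 0.0135). That was 3.85% in each direction, against 8.34% of all genes higher and 3.95% lower. Creb3l3 is a liver transcription factor anchored in the ER. Xbp1 and Atf4, main transcription factors of the response, had 0.02 (adjusted p = 0.966) and 0.00 (adjusted p = 0.999). The mitochondrial list had 3 of 18 genes lower (16.7%) and none higher. Of all genes 3.95% were lower, and of those with bright rows 6.62%. Clpx, which unfolds proteins for a matrix protease, fell by 1.60 (adjusted p = 0.0105), Grpel2, a nucleotide exchange factor for matrix HSP70, by 0.60 (adjusted p = 0.0486) and Pmpcb, a subunit of the protease that removes import signals, by 0.52 (adjusted p = 0.0490). In 11 of 18 all treated livers lay below both controls (29.3% of all genes did so). The median of the list was -0.29, against -0.08 over all genes. Its summed intensity was 14508 to 14787 in PBS livers and 11758 to 11857 in CSF1-Fc livers, without overlap. Sums were lower without overlap in further lists. They were 18189 to 19880 against 15060 to 16988 for the unfolded protein response list. The oxidative folding list had 10093 to 11277 against 8325 to 10069. The secreted liver proteins had 190504 to 190854 against 166325 to 182890. Erythroid markers had 1401 to 1436 against 989 to 1141, and cholangiocyte markers 249 to 250 against 161 to 211. Macrophage, Kupffer cell, neutrophil, T cell, stellate cell and cell cycle sums were higher without overlap, and the remaining lists overlapped. Yet 8 of 10 stellate cell genes had log2 fold changes below 0 (median -0.30). Only Vim (1.85) and Acta2 (1.99) of that list were above 0. Such sums follow the brightest genes of a list and were not rescaled.

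The order of the livers seen in ER members was found in 11 of 16 HSP90 and HSP70 co-chaperones (68.8%) and 8 of 19 other ER folding partners (42.1%) with bright rows. It was found in 7 of 15 oxidative folding genes (46.7%), 12 of 26 genes of the unfolded protein response list (46.2%), 7 of 18 of the mitochondrial list (38.9%), 1 of 3 heat shock factor genes and none of the 8 prefoldin genes and TRiC partners. The share was 4 of 17 for macrophage markers (23.5%) and 13 of 32 for secreted liver proteins (40.6%), against the 31.6% of all genes given above.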

How the data were processed

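Liver RNA of 2 PBS and 3 CSF1-Fc mice was amplified with a Nugen kit and hybridized to Affymetrix mouse gene arrays. The deposited values were linear intensity values already normalized by the authors with Affymetrix Expression Console 1.1 (submitters' processing notes). Which normalization was applied is not stated in the sources at hand. The log2 of each deposited intensity was taken with no pseudocount or filter. All 35556 rows were fitted with limma 3.58.1 (R 4.3.3), a mean per group, eBayes moderation (3 residual and 3.34 prior degrees of freedom) and Benjamini-Hochberg adjustment over all rows, with calls at an adjusted p under 0.05. Of the rows, 21218 had 1 gene symbol, 1881 several and 12457 none. A gene was read from its brightest row with 1 symbol, and 11 members had several rows. The script was tested on simulated data. Nothing says how replicates were kept apart beyond separate livers, and p-values measure only their spread. The number of arrays limits the precision.

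Full statistics were given for members past the threshold and the brightest member of each family, and for up to 4 genes of each further list. Hsf1, Ddit3 and Hsp90ab1 were not analyzed here. The members, compartments and the 18 gene lists were chosen with earlier results of these data known. Alternatives were quantile normalization, centering on array medians or secreted proteins, a filter on dim rows, 1-symbol rows only, averaging rows, other variance moderation, a replicate block and leaving out each mouse. The deviations of same-numbered mice correlated at -0.07 and -0.25. With 2 PBS arrays their deviations mirror each other, so these values cannot settle whether mice were paired. The labels name no pairing. Promoter sequences came from RefSeq (GRCm38.p6) and were matched by symbol.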

Additional observations from a re-analysis of the deposited data

How the results depend on the processing

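No member that passed changed sign under any of the 14 alternatives, and Dnajc9 passed in each that kept both PBS livers. Over all single-mouse leave-outs, those of a PBS mouse included, the log2 fold change of Dnajc9 ran from 1.15 to 1.22. The members that passed had 1 row each and groups without overlap, so only a change of array scaling could turn their sign. In the main analysis 2 members were higher and 3 lower, of which 0 and 2 were cytosolic, 1 and 0 ER, and 0 and 1 mitochondrial. Centering on secreted proteins gave 4 higher and 1 lower in all and 2 higher and 0 lower in the cytosol, and centering on array medians gave 3 and 2 in all and 1 and 1 in the cytosol. Averaging rows of a gene gave 5 and 7 in all, 2 and 3 in the cytosol and 3 lower in mitochondria, and testing only rows with 1 symbol gave 5 and 7 in all, 2 and 4 in the cytosol and 2 lower in mitochondria. Both test fewer rows. In both, Dnajc12, Hspa14, Dnajb2, Dnaja3, Dnajb13 and Dnajc22 passed beside the main calls. Dnajc11 joined them with rows averaged, and Hspb1 with 1-symbol rows. Without variance moderation 1 member was higher and 1 lower in all, 0 lower in the cytosol, 0 higher and 1 lower (Dnajc25) in the ER and 0 lower in mitochondria. Trend and robust moderation gave 1 and 2 in all, 1 lower in the cytosol and 0 higher in the ER. Without dim rows 3 were higher and 3 lower, with 1 higher in the cytosol (Dnajc12). Quantile normalization moved no count. Beyond construction the cause was not tested. Leaving out single mice gave 1 to 2 members higher and 0 to 2 lower in all, 0 higher and 0 to 1 lower in the cytosol, 0 to 1 higher and 0 lower in the ER, and 0 higher and 0 to 1 lower in mitochondria. Where a PBS mouse was left out, the lone control was assumed to vary like the treated group.

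With the replicate number as a block, 2 members were higher and 1 lower in all, 1 higher and 0 lower in the cytosol, 0 higher in the ER and 1 lower in mitochondria. Dnajc10, Bag3 and Bag4 lost their calls and Dnajc12 gained one. The labels do not say that the numbers pair mice.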
